A study of Mus musculus with 16 samples.

Results

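A single radiation dose of 4 Gy was compared with 0 Gy in tumour-bearing mouse lungs that also received anti-PD-1, an antibody that blocks an inhibitory receptor of T cells. The comparison uses 5 of the 16 bulk RNA libraries of the series: the 3 titled anti-PD-1 with 4 Gy and the 2 titled anti-PD-1 with 0 Gy. All 5 came from C57BL/6 mice whose lungs carried HKP1, a mouse lung adenocarcinoma line that lacks p53. Lungs of 3 to 4 mice were pooled for each library, and the labels place collection at 24 to 48 h after irradiation. They give no age, no antibody schedule and no account of which mice shared a pool. Libraries given control IgG, 3 at 0 Gy and 2 at 4 Gy, are quoted beside the results and are used for the test of a difference between antibodies. A library holds RNA of tumour cells, lung cells and immune cells together, so fewer cells of a type and less RNA per cell cannot be told apart.

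Ionizing radiation breaks DNA, and cells with intact p53 answer by switching on genes such as Cdkn1a, which halts the cell cycle, and Bax and Bbc3, which promote cell death. Damaged DNA that reaches the cytosol can start a type I interferon response, which raises genes that restrict viruses. Interferon gamma, made by T cells and natural killer cells, raises antigen presentation, T cell attracting chemokines and Cd274, the gene of the PD-1 ligand PD-L1.

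The libraries differed in more than dose. Values are CPM, the reads of a gene scaled to a common library size, and 1 read was worth 0.0334 and 0.0246 CPM in replicates 1 and 2 at 0 Gy, and 0.018, 0.0418 and 0.0319 CPM in replicates 1, 2 and 3 at 4 Gy. Genes with no reads numbered 3863 and 2769 at 0 Gy and 2518, 6108 and 5330 at 4 Gy, against 2285 to 3857 in the other 11 libraries. Replicates 2 and 3 at 4 Gy therefore stood apart in missing genes, though not both in depth, since replicate 1 at 0 Gy was shallower than replicate 3 at 4 Gy. On the first principal component, which held 46.7% of the variance of all 16 libraries, the 0 Gy libraries lay at 10.1 and 5.3 and the 4 Gy libraries at -46.8, -81.5 and -98.3, so that all 3 were the lowest of the series. Transcript length moved with the dose as well. Among the 3461 genes with the longest transcripts (4895 bases or more), the median difference from the 0 Gy mean was -0.18 (log2) in replicate 1 at 4 Gy, -0.43 in replicate 2 and -0.55 in replicate 3, whereas among the 3466 genes with the shortest (1432 bases or fewer) it was 0.07, 0.11 and 0.02. The same long genes stood at -0.02 and -0.24 in the IgG libraries at 4 Gy. The part of length in the results was not tested. The S numbers in the sample titles set the doses in separate runs of numbers, so dose and any effect of that order cannot be told apart.

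**Figure D1:**
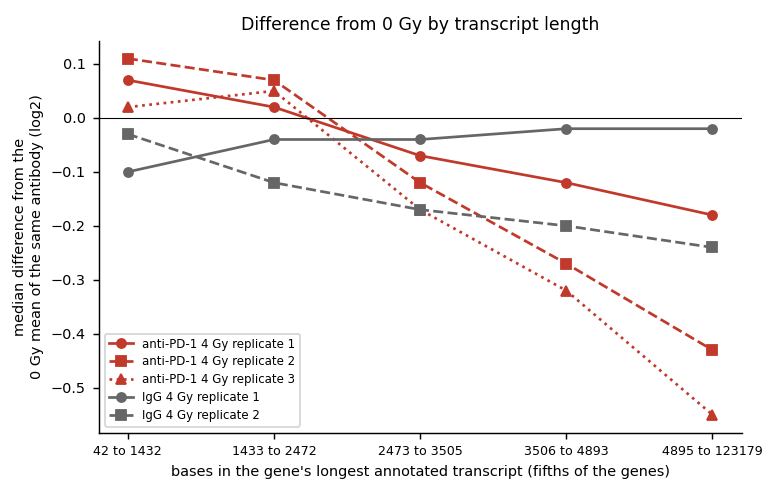
Median log2 difference of each 4 Gy library from the mean of the 0 Gy libraries given the same antibody, for 5 near-equal classes of the genes ordered by the length of their longest annotated transcript (bases). Each point is 1 library; the red lines are anti-PD-1 and the grey lines IgG, and in the longest class the anti-PD-1 libraries lie at -0.18, -0.43 and -0.55.

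Of the 17546 genes tested with limma, 6895 (39.3%) passed an adjusted p of 0.05, 2347 higher at 4 Gy (13.4%) and 4548 lower (25.9%). The median gene stood at -0.13 on the log2(CPM + 0.5) scale, and with quantile normalization at -0.01, where the split became 3317 higher and 3664 lower. Setting the library medians equal moved it to 0.03 and the split to 3441 and 3319. All 3 libraries at 4 Gy lay above both at 0 Gy for 24.5% of genes and below both for 36.8%, 61.3% in either direction. Replicate 1 at 4 Gy, the deepest of the 5 libraries, lay above both 0 Gy libraries for 2327 of the 2347 genes called higher, and below both for 4437 of the 4548 called lower. The calls were made with this library included, so these counts are no separate check on them. The number of calls depended on which libraries were kept. Without replicate 2 at 0 Gy, 1536 genes passed. With replicate 1 as the only 4 Gy library, 28 genes passed (0.16%), 16 higher (0.0912%) and 12 lower (0.0684%), and 27 of the 28 were among the calls made on all libraries (the other was Cd300lb, a myeloid receptor gene, named after its values were seen). That fit has 1 library at 4 Gy, whose spread is assumed to be that of the other groups, so the loss of replicates and any property of the libraries left out cannot be told apart.

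**Figure D2:**
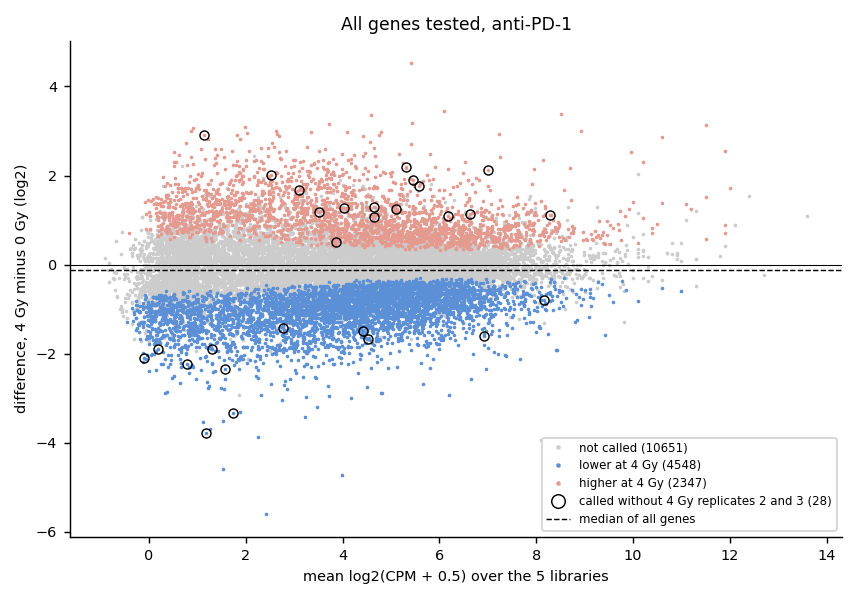
Difference between 4 and 0 Gy under anti-PD-1 (log2, vertical) against the mean log2(CPM + 0.5) of the 5 libraries (horizontal), 1 point per gene tested. Blue points are the 4548 genes lower at 4 Gy, red points the 2347 higher, and black rings the 28 genes called with replicate 1 as the only 4 Gy library.

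p53 target genes included the 2 rises with the lowest p of all genes. Of 30 targets tested, 13 rose and 6 fell, where 13.4% and 25.9% of all genes did, with a median difference of 0.31 beside -0.13 for all genes. Cdkn1a, which encodes the cyclin-dependent kinase inhibitor p21 and lies on mm10 at chr17:29090976-29100727, stood at 47.6 and 57.6 CPM at 0 Gy and at 189, 228 and 281 CPM at 4 Gy. It rose by 2.12 ± 0.19 (SE, log2; adjusted p = 0.000287). Phlda3, a p53 target that restrains Akt signalling (chr1:135766119-135769136), stood at 22.1 and 16.9 CPM at 0 Gy and at 60.0, 80.1 and 81.9 CPM at 4 Gy, a rise of 1.89 ± 0.18 (adjusted p = 0.000449). In both genes every 4 Gy library exceeded every 0 Gy library, which the rule that names genes by lowest p requires. With replicate 1 as the only 4 Gy library, the differences were 1.84 for Cdkn1a and 1.61 for Phlda3.

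The genes of p53-dependent cell death and stress signalling rose too. Bax, the mitochondrial pore-forming protein, had 58.5 and 46.4 CPM at 0 Gy and 123, 133 and 162 CPM at 4 Gy (1.40 ± 0.18, adjusted p = 0.00216). Bbc3, which encodes PUMA, had 7.62 and 8.44 CPM against 23.1, 28.7 and 23.7 CPM (1.58 ± 0.28, adjusted p = 0.00404). Gdf15, a secreted stress cytokine, had 0.434 and 0.665 CPM against 5.53, 7.78 and 9.16 CPM (2.91 ± 0.38, adjusted p = 0.00216). None of these 3 overlapped between doses, as was so for 61.3% of all genes, and with replicate 1 alone at 4 Gy their differences were 1.23, 1.47 and 2.53, at adjusted p of 0.0651, 0.131 and 0.0832. Mdm2, the ubiquitin ligase that degrades p53, rose by 0.52 ± 0.18 (adjusted p = 0.0352). Among the targets that fell were Trp53inp1 (-1.58 ± 0.40, adjusted p = 0.00992) and Pmaip1, which encodes NOXA (-1.16 ± 0.36, adjusted p = 0.0214). Ccng1, a cyclin gene named as a p53 target (0.30 ± 0.17, adjusted p = 0.158), and the death receptor gene Fas (-0.08 ± 0.25, adjusted p = 0.818) did not pass. Trp53 itself had 42.5 and 36.9 CPM at 0 Gy and 63.7, 53.7 and 72.9 CPM at 4 Gy (0.66 ± 0.22, adjusted p = 0.0319).

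Type I interferon stimulated genes were higher at 4 Gy, and the promoters of the list were searched for a sequence element. Of 28 genes, 21 rose and none fell, at a median of 1.16. The interferon-stimulated response element was searched on either strand as GAAA, any 2 bases and GAAA again, in RefSeq promoters (build GRCm38.p6, 250 bases before to 50 after the start). It stood in 384 of the 11848 promoters of tested genes that could be matched (3.24%) and in 11 of the 19 matched members of this list (57.9%). The following windows upstream of the start of Isg15 (chr4:156200835-156200934, minus strand), Ifit3 (chr19:34583357-34583456, plus strand) and Rsad2 (chr12:26456523-26456622, minus strand) are shown because these are 3 antiviral genes with called rises; capitals mark the matches, in either orientation.
Isg15: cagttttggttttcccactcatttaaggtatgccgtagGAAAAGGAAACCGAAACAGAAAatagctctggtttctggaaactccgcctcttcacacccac
Ifit3: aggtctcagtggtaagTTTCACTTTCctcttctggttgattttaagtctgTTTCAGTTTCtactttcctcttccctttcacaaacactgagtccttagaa
Rsad2: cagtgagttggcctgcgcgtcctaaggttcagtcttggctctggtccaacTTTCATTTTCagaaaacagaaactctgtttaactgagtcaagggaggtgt
A match describes these letters and is not a measured binding site. Matched members were counted whether or not they were called, so the share describes the list and not the 4 Gy difference. The counting is not stated to use strand, so reads of genes that overlap one of those named, such as Art3 over Cxcl10, Patl2 over B2m or mt-Atp6 beside mt-Atp8, cannot be told apart.

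Isg15, which encodes a ubiquitin-like modifier, had 7.48 and 8.29 CPM at 0 Gy and 47.7, 48.4 and 57.2 CPM at 4 Gy (2.62 ± 0.39, adjusted p = 0.00276). Ifit3, which binds foreign RNA together with its family, had 12.1 and 19.5 CPM against 95.7, 48.8 and 79.6 CPM (2.19 ± 0.33, adjusted p = 0.00324). Rsad2, the antiviral enzyme viperin, had 2.64 and 5.17 CPM against 26.3, 6.14 and 13.5 CPM (1.68 ± 0.44, adjusted p = 0.0103). All 3 genes were separated by dose, but for Rsad2 replicate 2 at 4 Gy came close to the higher 0 Gy library while replicate 1 was the highest. With replicate 1 as the only 4 Gy library, 4 of the list passed: Rsad2 (2.67, adjusted p = 0.0234), Ifit3 (2.60, adjusted p = 0.0376), its near-identical neighbour Ifit3b (2.57, adjusted p = 0.0402) and Ifit1 (1.95, adjusted p = 0.0446). Their family may share reads, so the 3 Ifit genes are not separate evidence. The list median was larger in that fit, at 1.40. Among genes that did not pass with all libraries were Ifit2 (0.73 ± 0.33, adjusted p = 0.09), Mx1 (0.76 ± 0.35, adjusted p = 0.1) and the RNA sensors Ifih1 (-0.23 ± 0.27, adjusted p = 0.522) and Ddx58 (0.22 ± 0.28, adjusted p = 0.537).

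Genes of the interferon gamma response and MHC class I presentation were higher at 4 Gy, most so in replicates 2 and 3. Of 26, 14 rose and 1 fell, at a median of 1.19, and no member passed with replicate 1 as the only 4 Gy library, where the median was 0.52. Their medians in replicates 1, 2 and 3 at 4 Gy were 0.52, 1.23 and 1.62 above the 0 Gy mean. Cxcl10, a chemokine that attracts T cells, had 68.5 and 27.6 CPM at 0 Gy and 143, 368 and 725 CPM at 4 Gy (2.94 ± 0.70, adjusted p = 0.00764; 1.70 with replicate 1 alone, adjusted p = 0.275). Socs1, a feedback inhibitor of interferon signalling, had 7.88 and 4.53 CPM against 19.4, 61.8 and 87.0 CPM (2.88 ± 0.53, adjusted p = 0.00412; 1.62 with replicate 1 alone, adjusted p = 0.171). In both, replicate 1 lay above the 0 Gy libraries and replicates 2 and 3 lay much higher still. The promoters of both held the same element, as did 9 of the 19 matched members of the list (47.4%). The windows upstream of Cxcl10 (chr5:92349053-92349139, minus strand) and Socs1 (chr16:10785564-10785663, minus strand) are shown to set beside those of the antiviral genes.
Cxcl10: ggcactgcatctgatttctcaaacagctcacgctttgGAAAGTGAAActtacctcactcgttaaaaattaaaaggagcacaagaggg
Socs1: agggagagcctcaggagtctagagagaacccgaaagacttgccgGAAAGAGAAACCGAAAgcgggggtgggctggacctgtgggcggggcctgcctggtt
B2m, the light chain of MHC class I, also held it and fell, from 3076 and 2112 CPM to 1866, 1534 and 1659 CPM (-0.60 ± 0.19, adjusted p = 0.0259). The class I heavy chain genes H2-K1 (0.19 ± 0.25, adjusted p = 0.563) and H2-D1 (0.12 ± 0.21, adjusted p = 0.669) did not pass.

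Both PD-1 ligand genes rose. Cd274 had 27.5 and 32.3 CPM at 0 Gy and 78.7, 75.6 and 112 CPM at 4 Gy (1.53 ± 0.20, adjusted p = 0.00216; 1.39 with replicate 1 alone, adjusted p = 0.053). Pdcd1lg2, which encodes PD-L2, had 4.78 and 3.18 CPM against 12.4, 14.9 and 18.2 CPM (1.82 ± 0.30, adjusted p = 0.00383; 1.55 with replicate 1 alone, adjusted p = 0.131). The doses did not overlap in either gene. For Cd274 the IgG libraries stood at 54.3, 55.4 and 63.9 CPM at 0 Gy, so the anti-PD-1 libraries at 0 Gy were below all 3 of them. Pdcd1, the gene of PD-1 itself, overlapped between doses, with 65.0 and 23.4 CPM at 0 Gy and 13, 32.1 and 35.8 CPM at 4 Gy (-0.65 ± 0.48, adjusted p = 0.283).

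Most mitosis genes fell, 19 of 26 with none higher, at a median of -0.69, where 25.9% of all genes fell. Of 24 DNA replication genes 9 fell and none rose, at -0.31, nearer to that share, and 7 fell with quantile normalization and 6 with equal library medians. Kif11, the motor that separates spindle poles, had 59 and 62.7 CPM at 0 Gy and 32.6, 22.2 and 17.4 CPM at 4 Gy (-1.37 ± 0.22, adjusted p = 0.00376). Ccnb1, cyclin B1, had 36 and 35.7 CPM against 19.6, 13.3 and 9.16 CPM (-1.39 ± 0.25, adjusted p = 0.00408). Mki67, the proliferation marker Ki-67, had 265 and 305 CPM against 214, 178 and 138 CPM (-0.71 ± 0.16, adjusted p = 0.00704). In each of these genes all 4 Gy libraries were below both 0 Gy libraries, and replicate 1 was the nearest to them. Among the replication genes, Pola1, the catalytic subunit of DNA polymerase alpha, fell by 1.34 ± 0.28 (adjusted p = 0.00537), and Rrm2, a subunit of ribonucleotide reductase, fell by 0.97 ± 0.19 (adjusted p = 0.00461). No mitosis or replication gene passed with replicate 1 as the only 4 Gy library, where the medians were -0.55 and -0.18. In the IgG libraries at 0 Gy, Kif11 stood at 40.4, 47.5 and 38.8 CPM, below both anti-PD-1 libraries at 0 Gy and above all 3 at 4 Gy.

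The promoters of mitosis genes shared the core of the cell cycle homology region, TTTGAA, through which cell cycle repressor complexes act. It stood on either strand in 17 of the 22 matched members (77.3%), against 1493 of the 11848 promoters (12.6%). Here too members were counted whether or not they were called. Windows upstream of Kif11 (chr19:37376313-37376381, plus strand) and Mki67 (chr7:135716432-135716527, minus strand) are shown because both genes fell; capitals mark the core in either orientation.
Kif11: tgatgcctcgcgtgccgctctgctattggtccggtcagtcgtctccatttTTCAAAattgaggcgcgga
Mki67: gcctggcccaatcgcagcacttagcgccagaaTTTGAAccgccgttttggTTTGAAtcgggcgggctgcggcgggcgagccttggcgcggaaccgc
Cdc20, which activates the anaphase-promoting complex, held the core as well and did not pass (-0.27, adjusted p = 0.326).

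Genes of DNA double-strand break repair fell in the same libraries, 10 of 20 with none higher, at a median of -0.48, where 25.9% of all genes fell. With quantile normalization 7 fell and 1 rose, and with equal library medians 6 fell and 1 rose, at medians of -0.33 and -0.32. Brca2, which acts in repair by homologous recombination, had 17.1 and 22.1 CPM at 0 Gy and 13, 10.2 and 8.4 CPM at 4 Gy (-0.88 ± 0.19, adjusted p = 0.00575). Atm, the kinase that signals breaks, fell by 0.87 ± 0.24 (adjusted p = 0.0139). With replicate 1 alone at 4 Gy their differences were -0.56 and -0.38, and none of the list passed. The list medians in replicates 1, 2 and 3 were -0.36, -0.57 and -0.67, the same order as for the longest transcripts, whose part in this was not tested.

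Cytotoxic lymphocyte genes rose more often than the 13.4% of all genes, and at a larger median (0.97) than general T cell genes (0.31). Of 18 cytotoxic genes, 11 rose and none fell, at a median of 0.97, which was 0.97 again with replicate 1 alone, though no member passed there. Gzmb, granzyme B, had 15.8 and 8.57 CPM at 0 Gy and 26.5, 31.1 and 52.0 CPM at 4 Gy (1.55 ± 0.38, adjusted p = 0.009). Tbx21, the transcription factor T-bet, had 5.61 and 3.50 CPM against 15.9, 16.1 and 14.4 CPM (1.69 ± 0.42, adjusted p = 0.00898). Ifng, interferon gamma, had 2.19 and 1.47 CPM against 3.20, 7.90 and 20.2 CPM (1.91 ± 0.64, adjusted p = 0.0303). Tbx21 was even across the 4 Gy libraries, whereas Ifng was 0.68 with replicate 1 alone (adjusted p = 0.576). Prf1, perforin, rose by 1.55 ± 0.43 (adjusted p = 0.0146).

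Of 20 T cell genes 4 rose and 1 fell, at a median of 0.31. Of all genes 13.4% rose and 25.9% fell, at a median of -0.13. Trac, the constant region of the T cell receptor alpha chain, had 63.9 and 36.8 CPM at 0 Gy and 52.8, 58.8 and 56.0 CPM at 4 Gy (0.20 ± 0.30, adjusted p = 0.613). Cd8a overlapped between doses too (-0.10 ± 0.38, adjusted p = 0.849). Thy1 (1.09 ± 0.32, adjusted p = 0.0182) and Cd2 (1.18 ± 0.38, adjusted p = 0.0251), both lymphocyte surface proteins, rose, and Il7r, the interleukin-7 receptor, fell by 1.49 ± 0.46 (adjusted p = 0.0221). Among 16 checkpoint and regulatory T cell genes 1 rose and 3 fell, neither above the share of all genes. Ctla4, the other inhibitory receptor targeted in the clinic, had 22.6 and 27.8 CPM at 0 Gy and 11.8, 9.03 and 11 CPM at 4 Gy (-1.21 ± 0.31, adjusted p = 0.00968), and Tigit fell by 0.84 ± 0.30 (adjusted p = 0.0395). The IgG libraries at 0 Gy held 6.75, 7.78 and 14.9 CPM of Ctla4, below both anti-PD-1 libraries at 0 Gy. B cell genes stood at a median of 0.94, with 2 of 15 higher and 1 lower, where 13.4% and 25.9% of all genes were. Their summed CPM overlapped between doses, with 1423 and 994 at 0 Gy and 1239, 1128 and 980 at 4 Gy. Cd79a, a chain of the B cell receptor complex, had 15.1 and 23.1 CPM against 57.8, 93.5 and 69.3 CPM (1.92 ± 0.62, adjusted p = 0.0257), while Jchain, a plasma cell gene, fell by 1.90 ± 0.59 (adjusted p = 0.022).

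Monocyte and macrophage genes were higher at 4 Gy. Of 18, 8 rose and 1 fell, at a median of 0.55 and at 0.86 with replicate 1 alone. Fcgr1, the high-affinity IgG receptor, had 21.9 and 18.4 CPM at 0 Gy and 60.3, 34.8 and 53.7 CPM at 4 Gy (1.25 ± 0.22, adjusted p = 0.00408), and it passed with replicate 1 alone (1.56, adjusted p = 0.0283). Ly6c2, a marker of inflammatory monocytes, had 16.2 and 15.4 CPM against 62.8, 32.4 and 40.2 CPM (1.43 ± 0.33, adjusted p = 0.00675). Cd14, the endotoxin co-receptor, was the member that fell (-1.03 ± 0.22, adjusted p = 0.00568). The summed CPM of the list was 4466 and 4836 at 0 Gy and 6233 to 7914 at 4 Gy, against 6850 to 10304 in the other 11 libraries, so that the anti-PD-1 libraries at 0 Gy had the lowest sums of the series.

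Of the genes that passed with replicate 1 as the only 4 Gy library, several had 4 Gy values near those of the IgG libraries. Tifab, an inhibitor of TRAF6 signalling, had 24.6 and 20.5 CPM at 0 Gy and 86.6, 72.6 and 74.4 CPM at 4 Gy (1.77 ± 0.20, adjusted p = 0.000953; 1.93 with replicate 1 alone, adjusted p = 0.0234), and 52.7 to 75.3 CPM in the IgG libraries at both doses. Rab3il1, an exchange factor for Rab proteins, had 14.2 and 14 CPM against 36.2, 32.9 and 36.3 CPM (1.29 ± 0.14, adjusted p = 0.00095; 1.33 with replicate 1 alone, adjusted p = 0.0234), and 28.2 to 35.3 CPM in the IgG libraries. Slc15a3, a lysosomal peptide transporter, had 42.7 and 48.9 CPM against 116, 74.2 and 109 CPM (1.09 ± 0.18, adjusted p = 0.00383; 1.33 with replicate 1 alone, adjusted p = 0.0234), and 78.4 to 95.7 CPM in the IgG libraries. Ptafr, the platelet-activating factor receptor, had 14.6 and 16.3 CPM against 50.3, 26.9 and 26.4 CPM (1.07 ± 0.23, adjusted p = 0.00584; 1.67 with replicate 1 alone, adjusted p = 0.0148), and 35.9 to 42.8 CPM in the IgG libraries. In all 4 genes both anti-PD-1 libraries at 0 Gy were below every IgG library at 0 or 4 Gy.

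Of 9 genes of macrophages polarized by type 2 cytokines 3 rose and none fell, and of 17 inflammatory cytokine genes 4 rose and 3 fell, where 13.4% and 25.9% of all genes did. Retnla, a secreted product of such macrophages, had 12.9 and 19.2 CPM at 0 Gy and 143, 148 and 257 CPM at 4 Gy (3.44 ± 0.50, adjusted p = 0.00271), and the eosinophil chemokine Ccl24 had 5.95 and 6.89 CPM against 23.1, 33.2 and 27.5 CPM (2.03 ± 0.37, adjusted p = 0.00408). Egr2, a transcription factor, was the other type 2 gene that rose. Tnf had 3.67 and 3.37 CPM against 12.6, 20.2 and 18.3 CPM (2.10 ± 0.34, adjusted p = 0.00366). Acod1, which makes itaconate, rose by 2.49 ± 0.48 (adjusted p = 0.00421). Il6 was low, with 1.40 and 1.11 CPM against 0.324, 0.251 and 0.447 CPM, and fell (-1.06 ± 0.33, adjusted p = 0.0228). None of these passed with replicate 1 alone at 4 Gy, where Retnla stood at 3.14 (adjusted p = 0.0969) and Tnf at 1.70 (adjusted p = 0.131).

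Neutrophil genes were split. Of 15, 3 rose and 7 fell, at a median of -1.03, where 13.4% and 25.9% of all genes did. With replicate 1 as the only 4 Gy library the median was -0.49. The list's summed CPM overlapped between doses, with 386 and 804 at 0 Gy and 507, 369 and 417 at 4 Gy. Mmp8, a collagenase of neutrophil granules, had 21.7 and 66.2 CPM at 0 Gy and 4.75, 3.05 and 2.01 CPM at 4 Gy (-3.42 ± 0.43, adjusted p = 0.00216). S100a8, a subunit of calprotectin, had 36 and 107 CPM against 11.8, 5.56 and 5.94 CPM (-3.0 ± 0.69, adjusted p = 0.00682). Both 0 Gy libraries exceeded every 4 Gy library in these genes, with replicate 2 the higher at 0 Gy. Mmp8 in the IgG libraries lay between 3.42 and 6.08 CPM at either dose. The members that rose were Ltf, lactoferrin (2.18 ± 0.66, adjusted p = 0.0197), Csf3r, the receptor of the neutrophil growth factor (0.81 ± 0.23, adjusted p = 0.0159), and the chemokine Cxcl3 (1.33 ± 0.43, adjusted p = 0.0257).

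Lung epithelial genes were higher at 4 Gy. Of 16 club cell genes, 7 rose and none fell, at a median of 1.44. Scgb3a2, a secretoglobin of club cells, had 58.6 and 134 CPM at 0 Gy and 976, 767 and 1094 CPM at 4 Gy (3.39 ± 0.58, adjusted p = 0.00404). Hp, haptoglobin, had 136 and 209 CPM against 638, 747 and 909 CPM (2.16 ± 0.33, adjusted p = 0.00359). Scgb1a1, the gene for which the series title names these cells, had 2092 and 3778 CPM against 6866, 6484 and 12303 CPM and did not pass (1.54 ± 0.64, adjusted p = 0.0671), although the doses did not overlap. The club cell sum was 3456 and 6321 CPM at 0 Gy and 12538, 13066 and 22671 CPM at 4 Gy, above the 937 to 9523 CPM of the other 11 libraries.

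Alveolar and ciliated cell genes were higher as well, where 13.4% of all genes rose and 25.9% fell. Of 13 alveolar type 2 genes, 9 rose and none fell, at a median of 1.26, and of 12 alveolar type 1 genes 4 rose and none fell, at 0.46. The type 2 sum was 2830 and 4818 CPM at 0 Gy and 9972 to 12794 CPM at 4 Gy, within the 1334 to 15199 CPM of the other 11 libraries. The type 1 sum was 847 and 1099 CPM against 1548 to 1869 CPM, which overlapped their 321 to 1676 CPM. Sftpb, surfactant protein B, had 269 and 447 CPM at 0 Gy and 1238, 2541 and 2596 CPM at 4 Gy (2.53 ± 0.53, adjusted p = 0.00522). Ager, a receptor abundant on type 1 cells, had 157 and 228 CPM against 597, 628 and 584 CPM (1.67 ± 0.48, adjusted p = 0.0166). Of 15 ciliated cell genes 9 rose and none fell, at 1.77, among them the dynein light chain gene Dynlrb2 (3.17 and 6.06 CPM against 26.7, 38.7 and 52.9 CPM, 2.97 ± 0.55, adjusted p = 0.00412). The ciliated sum of 435 to 744 CPM at 4 Gy exceeded the 42.4 to 283 CPM of the other 11 libraries. Lrrc23, a radial spoke protein of cilia, had 7.95 and 15.2 CPM against 57.7, 123 and 154 CPM (3.17 ± 0.85, adjusted p = 0.0121).

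Endothelial genes were positive in 20 of 20, at a median of 1.18, and 5 rose. Plvap, which forms the diaphragms of capillary pores, had 28.7 and 42.2 CPM at 0 Gy and 161, 213 and 153 CPM at 4 Gy (2.30 ± 0.59, adjusted p = 0.0103), and Eng, endoglin, rose by 1.90 ± 0.43 (adjusted p = 0.00646). The medians with replicate 1 alone were 1.30 for club cells, 1.00 for alveolar type 2 cells, 1.35 for ciliated cells and 1.43 for endothelial cells, but no member of these 4 lists passed there. Of 17 fibroblast and matrix genes 4 fell and 1 rose, at a median of -0.33, and the share that fell was near the 25.9% of all genes. Pdgfra, a growth factor receptor of lung fibroblasts, fell by 0.98 ± 0.20 (adjusted p = 0.00479). Among 12 genes of epithelial tumour cells, 3 rose and 3 fell, and 7 were positive. Their median was 0.19, and -0.25 with replicate 1 alone at 4 Gy. Cdh1, E-cadherin, fell from 916 and 754 CPM to 505, 423 and 381 CPM (-0.94 ± 0.22, adjusted p = 0.0069), and Hmga2, a chromatin protein of invasive tumours, fell by 1.25 ± 0.39 (adjusted p = 0.0234). Cldn4, of the same list, rose by 1.57 (limma, adjusted p = 0.0121). A construct sequence listed in the table as RFP had 17.9 and 9.92 CPM at 0 Gy and 14.2, 15.2 and 6.93 CPM at 4 Gy, and the doses overlapped.

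**Figure D3:**
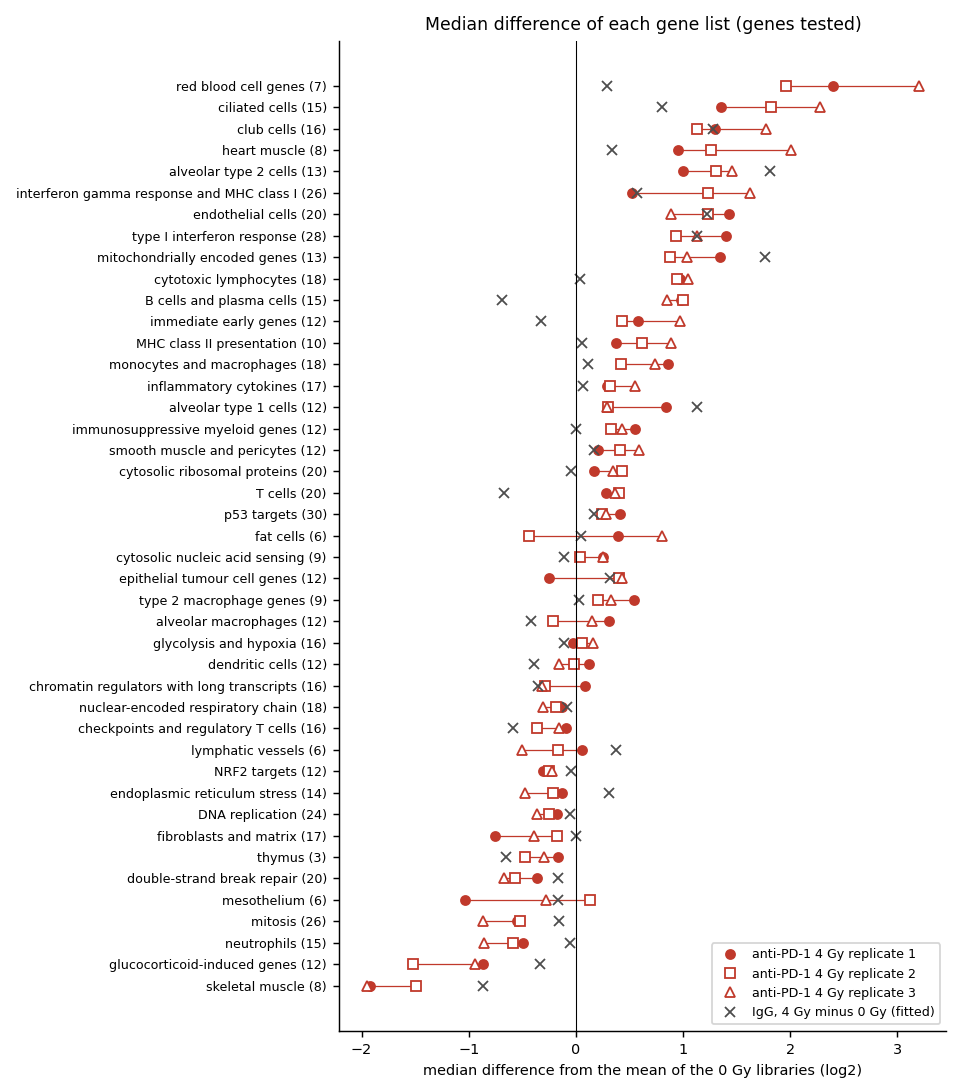
Median log2 difference of each gene list from the mean of the 2 anti-PD-1 libraries at 0 Gy, with 1 red symbol per 4 Gy library (replicate 1 filled) and a cross for the fitted IgG difference; the number of genes tested follows each name. Red blood cell genes lie highest in all 3 libraries (1.96 to 3.20), skeletal muscle genes lie between -1.95 and -1.49, and the interferon gamma list spreads from 0.52 to 1.62.

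Glucocorticoid-induced genes fell. Of 12, 8 fell and 1 rose, at a median of -1.13. Fkbp5, a co-chaperone of the glucocorticoid receptor (chr17:28399094-28517527), had 215 and 255 CPM at 0 Gy and 71.6, 78.1 and 79.1 CPM at 4 Gy. Its fall of 1.61 ± 0.16 (adjusted p = 0.000607) had the lowest p in that direction and passed with replicate 1 alone (-1.70, adjusted p = 0.0234). Zbtb16, a transcription factor strongly induced by these hormones, had 14.8 and 22.5 CPM against 3.08, 3.39 and 4.95 CPM (-2.15 ± 0.40, adjusted p = 0.00415), and Klf9 fell by 1.49 ± 0.24 (adjusted p = 0.00383). The IgG libraries at 0 Gy had 96.5, 138 and 106 CPM of Fkbp5 and 1.18 to 4.52 CPM of Zbtb16. The list's summed CPM was 1087 and 1339 in the anti-PD-1 libraries at 0 Gy, above all others in the series (512 to 851 CPM in the other 11), and 609 to 886 CPM at 4 Gy.

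Stress pathways moved in part, where 13.4% of all genes rose and 25.9% fell. Of 12 immediate early genes 5 rose and none fell, and Jun, a subunit of the AP-1 factor, had 31.5 and 36.1 CPM at 0 Gy against 69.1, 78.7 and 92.5 CPM at 4 Gy (1.23 ± 0.23, adjusted p = 0.0042). Of 12 NRF2 targets 6 fell and 1 rose, at a median of -0.25 beside -0.13 for all genes. With quantile normalization 6 fell and 1 rose, at -0.18, and with equal library medians 4 fell and 2 rose, at -0.09. Gclc, which makes the first step of glutathione synthesis, had 436 and 548 CPM against 171, 96.7 and 87.1 CPM (-2.11 ± 0.39, adjusted p = 0.00412), whereas Gstm1, a glutathione transferase, rose by 1.23 ± 0.25 (adjusted p = 0.00498). Of 14 genes of endoplasmic reticulum stress 5 fell and 3 rose, near the shares of all genes (25.9% and 13.4%). The chaperone Pdia3 fell from 826 and 713 CPM to 482, 281 and 226 CPM (-1.29 ± 0.27, adjusted p = 0.00537), and the transcription factor gene Ddit3 rose by 0.88 ± 0.21 (adjusted p = 0.00733).

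Markers of tissues outside the tumour and the airway moved with dose as well. The red blood cell genes rose in 6 of 7 at a median of 2.55. Hba-a2, an alpha globin that shares sequence with Hba-a1, had 897 and 648 CPM at 0 Gy and 4536, 6343 and 10516 CPM at 4 Gy (3.14 ± 0.76, adjusted p = 0.00821). The list's sum was 3215 and 2373 CPM against 15813, 15536 and 30116 CPM, with 1961 to 22297 CPM in the other 11 libraries. Skeletal muscle genes fell in 7 of 8 at -1.84. Acta1, skeletal actin, had 12.8 and 12.7 CPM at 0 Gy and 0.149, 2.36 and 0.740 CPM at 4 Gy (-3.33 ± 0.44, adjusted p = 0.00223; -4.35 with replicate 1 alone, adjusted p = 0.000677). Myh8, a myosin of developing muscle, had 9.81 and 10.9 CPM against 0, 1.46 and 0 CPM. The muscle sum of 53.3 and 52.8 CPM at 0 Gy was above that of every other library of the series (6.81 to 19.5 CPM). Heart muscle genes rose in 4 of 8, with sums of 35.4 and 36 CPM against 55.5, 107 and 116 CPM. The part of red cells and muscle in the other results was not tested.

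Mitochondrial and ribosomal protein genes were higher in part. The mitochondrially encoded mt-Atp8, a short subunit of ATP synthase whose frame overlaps that of its neighbour, had 7.18 and 4.97 CPM at 0 Gy and 51.7, 240 and 263 CPM at 4 Gy. It rose by 4.52 ± 0.99 (adjusted p = 0.00584), and without replicates 2 and 3 it was 3.01 (adjusted p = 0.231). Of 13 mitochondrial genes 3 rose and none fell, at a median of 1.00, where 13.4% and 25.9% of all genes did. With quantile normalization 1 of them rose, at a median of 0.60, and with equal library medians 4 rose, at 1.16. Under IgG their median was 1.76. Of 20 ribosomal protein genes 9 rose and 1 fell, at 0.31. Rplp1 had 732 and 456 CPM against 983, 1829 and 1429 CPM (1.25 ± 0.30, adjusted p = 0.00778). The share of mitochondrial transcripts was 1.27 and 3.24% at 0 Gy and 5.21, 3.97 and 3.76% at 4 Gy. All 5 values lay within the 0.90 to 7.53% of the other 11 libraries.

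Several of the largest changes fell outside these lists. Ccna1, a cyclin best known from the germ line, had 0.0668 and 0.271 CPM at 0 Gy and 3.64, 3.85 and 6.13 CPM at 4 Gy (2.90 ± 0.33, adjusted p = 0.00095). It also passed with replicate 1 alone (2.65, adjusted p = 0.0406), but replicate 1 at 0 Gy lay under the worth of 3 reads. Rec8, a cohesin subunit of meiosis, had 2.24 and 4.04 CPM against 24.2, 30.3 and 40.4 CPM, and Fgfr4, a fibroblast growth factor receptor, had 1.14 and 1.43 CPM against 16.8, 11.5 and 13.3 CPM. The doses were far apart in all 3 genes, though genes named as the largest changes had to be without overlap. The IgG libraries at 0 Gy ranged from 1.09 to 15.3 CPM for Rec8 and from 0.489 to 9.67 CPM for Fgfr4.

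Of the genes that fell, Adam12, a metalloprotease of mesenchymal cells, had 48.9 and 31.8 CPM at 0 Gy and 10.3, 23.4 and 10.3 CPM at 4 Gy (-1.50 ± 0.30, adjusted p = 0.00454). Ror1, a Wnt receptor, had 13.3 and 10.5 CPM against 3.17, 6.14 and 3.48 CPM (-1.42 ± 0.27, adjusted p = 0.00412). Both passed with replicate 1 alone, at -1.89 (adjusted p = 0.0234) and -1.75 (adjusted p = 0.0474), and both had lower IgG values at 4 Gy than at 0 Gy. Abcb1b, a drug efflux pump, had 146 and 149 CPM against 56.3, 44.9 and 39.9 CPM (-1.65 ± 0.21, adjusted p = 0.00216), where the IgG libraries at 0 Gy had 63.0 to 99.2 CPM. Pzp, a protease inhibitor, had 14.5 and 9.80 CPM against 0.918, 1.21 and 0.0396 CPM, and Slc17a4, an anion transporter, had 36.7 and 46.2 CPM against 5.96, 4.51 and 2.36 CPM. The IgG libraries at 0 Gy spread from 2.25 to 26.1 CPM for Pzp and from 7.58 to 35.8 CPM for Slc17a4, a wide spread within 1 group.

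**Figure D4:**
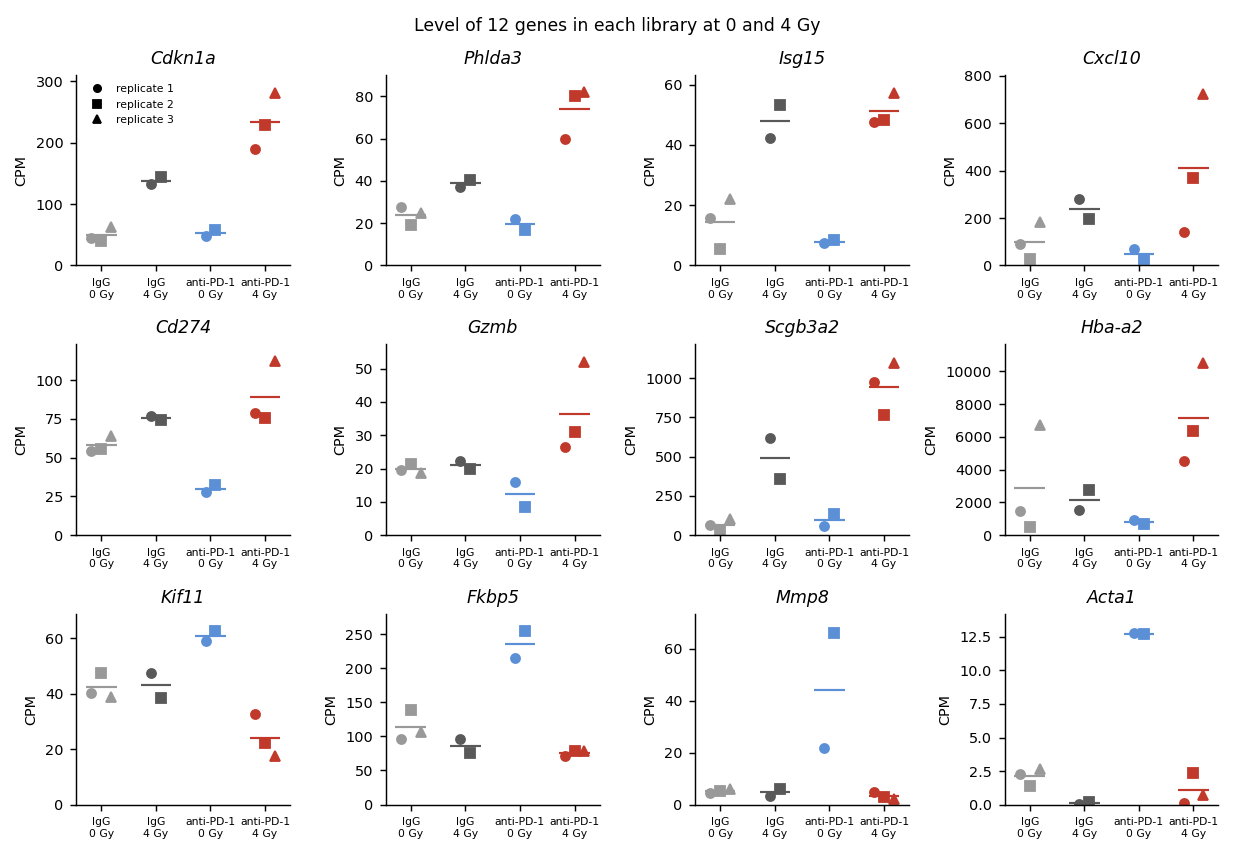
Level (CPM, linear axes from 0) of 12 genes in each library given IgG or anti-PD-1 at 0 and 4 Gy; symbols mark the replicate number and horizontal bars the group mean. In Cdkn1a and Scgb3a2 the 4 Gy anti-PD-1 libraries lie highest, in Cxcl10 replicate 1 lies below replicates 2 and 3, and in Fkbp5, Mmp8 and Acta1 the 0 Gy anti-PD-1 libraries lie above all IgG libraries.

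The same dose under IgG gave 1 call, Cdkn1a (0.0057% of genes), with 2016 genes at an unadjusted p under 0.05, against 8746 under anti-PD-1. Whether the 4 Gy difference itself depended on the antibody was tested as an interaction, which uses no library in both arms. It passed for 1593 genes (9.08%), 660 above IgG (3.76%) and 933 below (5.32%). For Cdkn1a the difference from IgG was 0.62 (adjusted p = 0.117), and for Isg15 0.74 (adjusted p = 0.351) and Scgb3a2 0.33 (adjusted p = 0.8). It was 1.15 for Cd274 (adjusted p = 0.0398), 2.22 for Tbx21 (adjusted p = 0.0436), -1.39 for Kif11 (adjusted p = 0.0394) and -1.22 for Fkbp5 (adjusted p = 0.0334). None of the 28 type I interferon genes passed it, and their medians were 1.16 under anti-PD-1 and 1.13 under IgG. The epithelial and endothelial lists had 0 to 2 genes that passed, with IgG medians of 1.28 for club cells, 1.81 for alveolar type 2 cells, 1.22 for endothelial cells, 1.13 for alveolar type 1 cells and 0.80 for ciliated cells. The last lay below the 1.77 of the ciliated list under anti-PD-1, and the alveolar type 1 median lay above its 0.46. T cell genes had a median of 0.31 under anti-PD-1 and -0.67 under IgG, where all 20 were negative, and 3 of them passed. These interaction calls are unstable: leaving out single libraries gave 0 calls in 7 of 10 fits, with 4052 to 5145 genes still at an unadjusted p under 0.05, and leaving out both replicates 2 and 3 gave 0, with 2532 at that p, all by limma. Without IgG replicate 2 at 0 Gy the count was 4824, without anti-PD-1 replicate 1 at 4 Gy it was 4717, and without anti-PD-1 replicate 1 at 0 Gy it was 3.

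**Figure D5:**
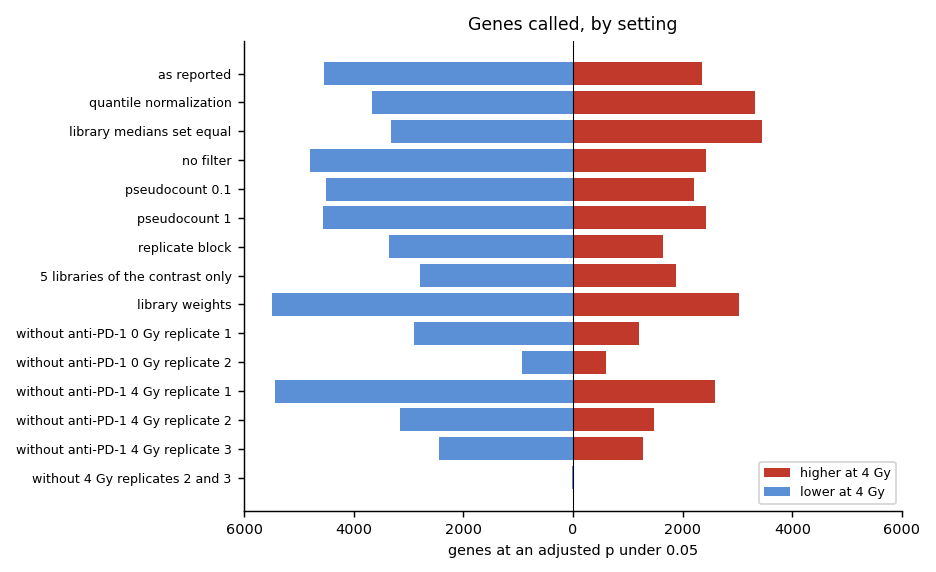
Number of genes higher (right, red) and lower (left, blue) at 4 Gy under anti-PD-1 at an adjusted p under 0.05, for the fit as reported and each alternative setting. The bars shrink from 2347 and 4548 to 603 and 933 without replicate 2 at 0 Gy, and to 16 and 12 without replicates 2 and 3 at 4 Gy.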

How the data were processed

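RNA of whole HKP1-bearing lungs was sequenced in 16 libraries. Per the submitters' processing notes, reads were handled with STAR and Partek on the mm10 build; neither tool's version, nor the annotation or strand setting, is given in the sources used here. The authors deposited CPM values for 30095 genes with 0.0001 added to each value, which was removed. Whole reads could not be recovered, so no count model was used. Groups were taken from the sample titles. Symbols were matched to GENCODE M21 (29369 names), and 23 of 25 symbols turned into dates were restored.

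The 17546 genes that reached 1 CPM in 2 or more libraries were fitted as log2(CPM + 0.5) with limma 3.58.1 (R 4.3.3, trend and robust options), with 6 group means over all 16 libraries and 10 residual degrees of freedom. Adjusted p is Benjamini-Hochberg over all genes tested, with a threshold of 0.05. A fold on this scale understates the change of low genes. In simulated data of the same design, 16% of genes changed 1.5-fold were recovered, 62% at 2-fold and 90% at 4-fold. The simulation changed 200 genes and drew Gaussian noise for each gene separately. In the data 39.3% of genes were called and libraries shifted in common, so these rates need not hold for them. With 2 libraries against 3, an exact permutation test of a single value cannot reach 0.05, so none is given.

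Members and the 43 gene lists were chosen with earlier results of these data known. Genes were named by rule: the 8 largest changes and 5 lowest p in each direction. Those also called without replicates 2 and 3 at 4 Gy were added. These genes needed a mean log2 value of at least 1 over the 5 libraries and no overlap between doses. Their separation by dose is therefore no separate result. Also named were the 5 lowest interaction p in each direction and up to 4 genes per list. Other list members were named after their values were seen, to show a list's range. Promoters are from RefSeq (GRCm38.p6). Nothing states that pools were made or handled independently beyond the mice in them, so the p-values reflect only how these libraries vary, which may be technical. Alternatives were 2 other scalings, 2 other pseudocounts, no filter, fewer libraries, a replicate block, each library left out and, added after seeing the data, library weights.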

Additional observations from a re-analysis of the deposited data

Results flagged for a closer look

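Of the genes named above, 28 had a 4 Gy difference that differed between anti-PD-1 and IgG at an adjusted p under 0.05 (limma, interaction, Benjamini-Hochberg), 14 above IgG and 14 below. Over all genes tested the count was 1593 (9.08%). The naming rule took the 5 lowest interaction p in each direction, so the 28 were partly chosen by this same test. The values here are the anti-PD-1 difference minus the IgG difference, in log2. The count over all genes was 0 when any of 7 libraries was left out singly, 3 for another, and 4824 and 4717 for the other two, and these genes were not followed singly through these leave-outs.

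Among p53 targets the value was 1.18 for Phlda3, 1.22 for Bax, 1.60 for Bbc3 and 2.02 for Gdf15. Immune genes above IgG were Cd274 at 1.15, Tnf at 2.03, Egr2 at 1.79, Tbx21 at 2.22 and Thy1 at 1.75. Genes whose IgG difference was between -0.05 and -0.01 included Slc15a3 at 1.10, Rab3il1 at 1.34 and Tifab at 1.78. Gstm1 stood at 1.32 and Ccna1 at 2.41.

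Below IgG were the division and replication genes Kif11 at -1.39, Ccnb1 at -1.60 and Rrm2 at -1.12. The glucocorticoid-induced genes were Fkbp5 at -1.22, Klf9 at -1.24 and Zbtb16 at -2.19. Mmp8 had the lowest value of the named genes, -3.26, and Slc17a4 stood at -2.90. B2m stood at -0.93, Cdh1 at -1.19, Pdgfra at -1.0, Abcb1b at -1.67, Gclc at -2.08 and Pdia3 at -1.82. For Fkbp5, Zbtb16, Mmp8, Kif11 and Abcb1b both anti-PD-1 libraries at 0 Gy were above all 3 IgG libraries at 0 Gy, and for Cd274, Tifab, Rab3il1 and Slc15a3 both were below them.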

How the results depend on the processing

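Of 206 genes followed through the alternatives 182 were called, none of them reversed, and 18 were called in every alternative, Cdkn1a, Phlda3, Ifit3, Fcgr1, Tifab, Rab3il1, Fkbp5 and Acta1 among them. Of the 182, 19 passed without replicates 2 and 3 at 4 Gy, 92 without replicate 2 at 0 Gy and 133 without replicate 1 at 0 Gy. The total of 6895 became 28 without replicates 2 and 3 at 4 Gy (16 higher, 12 lower; 3468 at an unadjusted p under 0.05). Leaving out 1 library gave 1536 to 8038 in all, 603 to 2598 higher and 933 to 5440 lower, with the lowest counts without replicate 2 at 0 Gy. Fitting the 5 libraries alone gave 2798 lower, and why was not tested. Uncalled genes that changed sign were Mmrn1 (0.70) and Xcr1 (0.07) without both, and Pdcd1 without replicate 1 at 0 Gy (0.07; -1.38 without replicate 2 at 0 Gy).

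The 1593 interaction calls became 2591 with quantile normalization, 414 with no filter, 6708 with library weights and 0 with the 10 libraries at 0 and 4 Gy only (4674 at an unadjusted p under 0.05, limma). Without replicates 2 and 3 at 4 Gy they became 0 (2532 unadjusted), and without 1 library 0 to 4824; the cause was not tested.

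With the replicate number as a block, 5014 genes passed (1648 higher, 3366 lower), and 164 of the 182 named calls; the interaction gave 1. Same-numbered libraries at 0 and 4 Gy under anti-PD-1 had correlations of -0.31 and -0.338, and the groups are of unequal size. With 2 libraries at 0 Gy, swapping their numbers only reverses these signs. This check therefore cannot decide whether the numbers mark pairs. Depth limits genes near the worth of 3 reads, at most 0.125 CPM.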

Other observations

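Several groups outside the main account moved little or in both directions, where 13.4% of all genes were higher and 25.9% lower. MHC class II genes were positive in 10 of 10 at a median of 0.63, with 2 higher. Alveolar macrophage genes gave 3 higher and 1 lower of 12, immunosuppressive myeloid genes 4 higher and 1 lower of 12, and dendritic cell genes 1 of each. Nuclear-encoded respiratory chain genes had 5 of 18 lower and 1 higher at -0.19, near the share lower and the median (-0.13) of all genes. Their median was -0.03 with equal library medians. The mitochondrially encoded genes were all positive. Glycolysis and hypoxia genes stood at 0.11 with 2 of 16 higher, and this median changed sign with the scaling. Smooth muscle and pericyte genes gave 3 higher and 1 lower of 12, and of 9 nucleic acid sensing genes 2 were higher and 1 lower. Fat cell genes gave 2 in each direction of 6, lymphatic vessel and mesothelium genes 1 lower of 6 each, chromatin regulators with long transcripts 1 lower of 16, and none of 3 thymus genes passed.

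Transcripts of the construct listed as CREERT2 stood at 27 and 17.6 CPM at 0 Gy and at 13.8, 12.1 and 6.80 CPM at 4 Gy, and those listed as GFP at 0.0540 to 0.134 CPM, near the worth of a few reads.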
